A study of Mus musculus with 8 samples.

Results

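RGS proteins (regulators of G protein signalling) were examined here as a set of 10 genes, Rgs2, Rgs4, Rgs8 and Rgs16 of the R4 subfamily, Rgs7 and Rgs9 of the R7 subfamily, Rgs17 and Rgs20 of the RZ subfamily, and Rgs10 and Rgs14 of the R12 subfamily. A gene was measured by the probe set of the array that is annotated to its symbol alone, and the brightest such probe set was used where a gene had several. Of the 10 genes, 9 had such a probe set, among 19938 genes on the array, and 8 passed the filter on low values, among 12452 genes tested. Rgs10 had no probe set paired with its symbol alone, and its level was not analysed here. Rgs14 fell just under the filter, at a mean log2 level of 6.817 against a limit of 6.824.

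RNA was taken from the suprachiasmatic nucleus (SCN), the paired hypothalamic cell group that sets circadian time in mammals. All mice were C57BL/6J, and were either wild type or Gpr176-/-, without a working copy of the gene for an orphan G protein-coupled receptor that couples to Gz. The deleted part of Gpr176, the cells it is deleted in, and the age and sex of the mice are not given in the labels. All animals had lived under 12 h of light and 12 h of dark for more than 2 weeks before they were moved to constant darkness. The SCN was then cut out with a laser at circadian time (CT) 6, in the subjective day, or at CT18, in the subjective night. Each of the 4 groups (wild type at CT6, wild type at CT18, knockout at CT6, knockout at CT18) had 2 arrays, A and B, which the labels call biological replicates, and each array carried the pooled SCN of 10 animals. Pooling averages over animals, so the spread between arrays is that between pools and not between animals.

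The array values are on a log2 scale, on which 1 unit is a doubling. The deposited medians of the 8 arrays lay between 7.34 and 7.39, and all levels given here are after quantile normalization. Along the first principal component, which held 51.9% of the variance, the CT6 arrays stood apart from the CT18 arrays. Along the second, which held 18.1%, array A of wild type at CT18 scored 9.17 and array A of the knockout at CT18 scored -8.85, at opposite ends, and calls of the 8 RGS genes that depend on these 2 arrays are given with and without them. Gpr176 was lower in all 4 knockout arrays (8.02 to 8.56) than in all 4 wild-type arrays (9.31 to 9.87), with a difference of -1.30 ± 0.0491 (limma, adjusted p = 3.37e-06). Of 13 SCN neuron markers, Rgs16 among them, 13 were above the filter.

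A G protein is switched on when a receptor loads its alpha subunit with GTP, and it switches itself off when the alpha subunit hydrolyses that GTP. RGS proteins bind the active alpha subunit and speed up the hydrolysis, so that they shorten the signal that follows receptor activation. The subfamilies differ in their partners. R4 proteins are small and act on alpha subunits of the Gi and Gq classes, R7 proteins act on Gi and Go as obligate complexes with the G protein subunit Gnb5, RZ proteins are known for acting on Gz, and R12 proteins act on the Gi class. In the SCN, Rgs16 is known for its daily rhythm and for limiting Gi signalling, which lowers cAMP.

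The stretches just upstream of the start sites are shown for 4 of the genes that differed between day and night, because Rgs16 and Rgs7 were lower at night while Rgs2 and Rgs4 were higher. The 250 bases before the RefSeq start of each gene (assembly GRCm38.p6) are written 5′ to 3′ on the gene's own strand. They run over chr1:153740103-153740352 on the plus strand for Rgs16, and on the minus strand over chr1:175492546-175492795 for Rgs7, chr1:144004150-144004399 for Rgs2 and chr1:169747643-169747892 for Rgs4. Capitals mark matches to the clock- and cAMP-related motifs described after the sequences.
Rgs16: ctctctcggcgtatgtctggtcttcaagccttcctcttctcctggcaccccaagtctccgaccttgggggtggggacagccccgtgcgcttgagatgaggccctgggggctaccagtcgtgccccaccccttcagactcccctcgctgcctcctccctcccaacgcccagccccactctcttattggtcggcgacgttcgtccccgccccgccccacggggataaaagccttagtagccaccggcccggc
Rgs7: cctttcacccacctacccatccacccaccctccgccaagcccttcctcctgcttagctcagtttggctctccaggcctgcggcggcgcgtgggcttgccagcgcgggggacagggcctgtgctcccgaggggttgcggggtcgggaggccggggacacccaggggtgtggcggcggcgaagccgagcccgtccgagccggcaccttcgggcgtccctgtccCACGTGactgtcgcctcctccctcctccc
Rgs2: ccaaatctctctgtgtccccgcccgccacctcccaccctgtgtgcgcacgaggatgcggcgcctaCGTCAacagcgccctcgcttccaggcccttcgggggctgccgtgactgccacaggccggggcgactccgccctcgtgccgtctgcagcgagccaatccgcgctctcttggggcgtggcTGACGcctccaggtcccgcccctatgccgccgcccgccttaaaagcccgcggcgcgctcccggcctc
Rgs4: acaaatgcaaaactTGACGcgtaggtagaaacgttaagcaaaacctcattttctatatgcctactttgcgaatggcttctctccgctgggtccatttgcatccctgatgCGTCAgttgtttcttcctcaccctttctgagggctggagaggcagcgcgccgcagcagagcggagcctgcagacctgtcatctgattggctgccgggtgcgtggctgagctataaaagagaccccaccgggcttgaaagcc

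Searched on both strands were CACGTG (the E-box bound by the core clock activators), TGACGTCA (the full cAMP response element), TGACG (its half-site, which every full element also contains), TTATGTAA (a D-box) and AGGTCA (the half-site of ROR and REV-ERB receptors). The windows of Rgs2 and Rgs4 each held 2 TGACG half-sites. They lay 67 bases before the start as written and 185 bases before it on the other strand in Rgs2, and 236 bases before it as written and 141 bases before it on the other strand in Rgs4. The window of Rgs7 held 1 CACGTG, 29 bases before the start. The window of Rgs16 held none of the 5. TGACG was not limited to genes that were higher at night, since 1 of 3 start site windows of Rgs8 held it (46 bases before the start, on the other strand). Another Rgs8 window held AGGTCA. Among 32851 RefSeq windows of the same length, 17.8% held TGACG, 6.02% CACGTG, 14.0% AGGTCA, 1.55% TGACGTCA and 0.819% TTATGTAA. Of the 10 genes, 8 had such a window. Rgs14 and Rgs20 had no window and were not searched, although Rgs20 was also lower at night. The windows of Rgs9, Rgs10 and Rgs17 held none of the 5 motifs. A match describes the letters only, and its absence says nothing about sites outside these windows.

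The first comparison asked how the RGS genes differ between subjective day and subjective night. Over both genotypes, 6 of the 8 tested genes passed the threshold of an adjusted p under 0.05 in limma, against 16.8% of all 12452 genes. With the filter at the 60th percentile, which left 7 of the RGS genes, the share over all genes was 25.2%. The RGS genes were chosen with earlier results of these data known, so the shares here and below are a description only. Rgs16, Rgs20, Rgs7 and Rgs8 were lower at CT18 than at CT6, where 6.79% of all genes were lower, and Rgs2 and Rgs4 were higher, where 10.0% of all genes were higher. Rgs9 and Rgs17 did not pass. The median difference over the 8 genes was -0.14, beside 0.01 over all genes tested. In wild type 5 of 8 passed, against 6.94% of all genes. Of these 2 were higher (4.40% of all genes) and 3 lower (2.54%). In the knockout 4 of 8 passed, against 7.16% of all genes, with 1 higher (3.63%) and 3 lower (3.53%). The day and night arrays did not overlap for 6 of 8 genes in wild type (52.2% of all genes), for 7 of 8 in the knockout (52.5%) and for 6 of 8 over both genotypes (21.0%). In a pooled tissue sample, fewer cells of a type and less RNA per cell cannot be told apart.

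**Figure D1:**
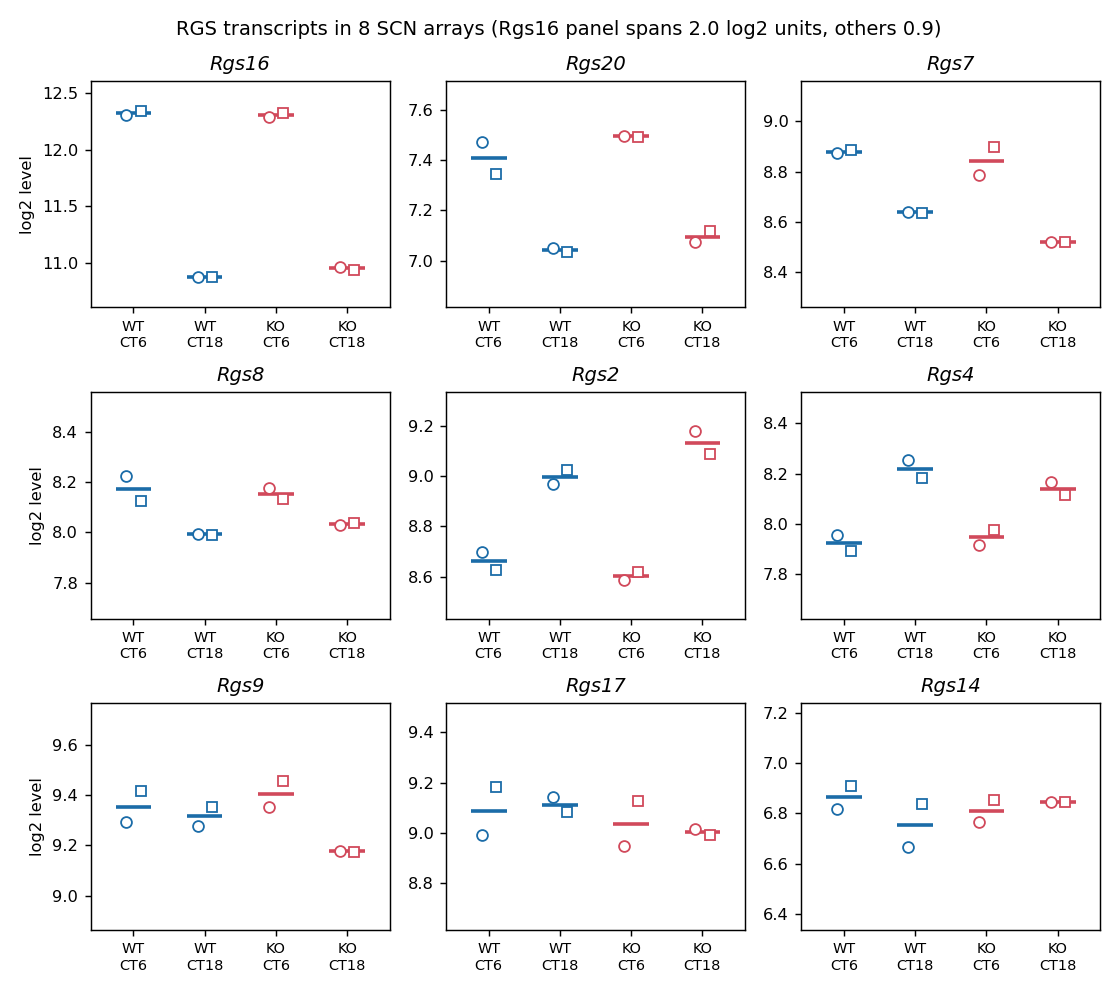
Normalized log2 level (vertical axis) of the measured RGS genes in each of the 8 arrays, by group, 1 panel a gene; circles are arrays A, squares arrays B and lines group means, wild type in blue and knockout in red, and the Rgs16 panel spans more than the others. Rgs16 is near 12.3 in the 4 CT6 arrays and near 10.9 in the 4 CT18 arrays of both genotypes, whereas the Rgs17 groups overlap.

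Among the tested R4 genes, Rgs16 had the widest gap between the times. The wild-type arrays stood at log2 levels of 12.30 and 12.34 by day (CT6) and 10.87 and 10.88 by night (CT18), and the knockout arrays at 12.29 and 12.32 by day and 10.97 and 10.94 by night. All 4 CT6 arrays lay above all 4 CT18 arrays, and the 2 arrays of any group were at most 0.0352 apart. Rgs16 was 2.64-fold lower at night over both genotypes, a log2 difference of -1.40 ± 0.0358 (95% interval -1.48 to -1.32, limma adjusted p = 3.67e-08). The wild-type difference was -1.45 ± 0.0506 (adjusted p = 8.36e-07), and that of the knockout was -1.35 ± 0.0506 (adjusted p = 1.08e-06). In each genotype and over both, this was the ninth largest fall among the 12452 genes.

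Rgs8, a brain-enriched R4 protein known to act on Gi and Go, is the next protein-coding gene to Rgs16 on chromosome 1 in the order of RefSeq genes. The wild-type arrays stood at log2 levels of 8.22 and 8.12 by day (CT6) and 7.99 and 7.99 by night (CT18), and the knockout arrays at 8.18 and 8.13 by day and 8.03 and 8.03 by night. The 4 CT6 arrays again lay above the 4 CT18 arrays, but the gap was small. Over both genotypes Rgs8 was 1.11-fold lower at night, a log2 difference of -0.15 ± 0.0389 (95% interval -0.24 to -0.06, limma adjusted p = 0.0257). Neither genotype passed alone, with -0.18 ± 0.0549 in wild type (adjusted p = 0.0867) and -0.12 ± 0.0549 in the knockout (adjusted p = 0.228). With the filter at the 60th percentile the wild-type difference passed (0.0487). The call over both genotypes was lost under 9 of 16 other settings. It was lost on the deposited values (adjusted p = 0.0630), on median-centred values (0.0850) and without the 2 arrays at the ends of the second component (0.133). It was also lost without any one of wild type at CT6 A (0.0842), wild type at CT18 A (0.0667) or B (0.0678), knockout at CT6 A (0.0804), and knockout at CT18 A (0.0659) or B (0.0700).

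Rgs2 and Rgs4 ran the other way. Rgs2 encodes an R4 protein that prefers Gq, the class that signals through phospholipase C. The wild-type arrays stood at log2 levels of 8.70 and 8.63 by day (CT6) and 8.97 and 9.02 by night (CT18), and the knockout arrays at 8.59 and 8.62 by day and 9.18 and 9.09 by night. Each CT18 array was above each CT6 array, and the knockout at CT18 held the highest pair. Rgs2 rose 1.35-fold at night over both genotypes, a log2 difference of 0.43 ± 0.0405 (95% interval 0.34 to 0.52, limma adjusted p = 0.000105). The rise was 0.33 ± 0.0573 in wild type (adjusted p = 0.00834) and 0.53 ± 0.0573 in the knockout (adjusted p = 0.000594). In wild type it no longer passed without array B of CT6 (adjusted p = 0.0688), without array B of CT18 (0.0542) and without the 2 arrays at the ends of the second component (0.0538). The knockout call and that over both genotypes were kept there, at 0.49 (0.0148) and 0.42 (0.00276).

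Rgs4, an R4 protein that acts on both Gi and Gq and is known from neurons, had log2 levels of 7.96 and 7.89 by day and 8.25 and 8.18 by night in the wild-type arrays. The knockout arrays read 7.92 and 7.98 by day and 8.17 and 8.12 by night. The 4 night arrays lay above the 4 day arrays. Over both genotypes Rgs4 rose 1.18-fold, a log2 difference of 0.24 ± 0.0399 (95% interval 0.15 to 0.33, limma adjusted p = 0.00305). It rose by 0.29 ± 0.0565 in wild type (adjusted p = 0.0136), while the knockout difference of 0.19 ± 0.0565 did not pass (adjusted p = 0.0733), though it did with the filter at the 60th percentile (0.0393). In wild type it no longer passed without array B of CT6 (adjusted p = 0.0983), without array A of CT18 (0.111) and without the 2 arrays at the ends of the second component (0.156). Rgs5, the neighbour of Rgs4 in the RefSeq order and a known pericyte gene, differed by -0.07 ± 0.0516 (adjusted p = 0.410).

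Of the R7 genes, Rgs7 was lower at night. The wild-type arrays stood at log2 levels of 8.87 and 8.89 by day (CT6) and 8.64 and 8.64 by night (CT18), and the knockout arrays at 8.79 and 8.90 by day and 8.52 and 8.52 by night. Both CT18 pairs were tight and lay under every CT6 array. Rgs7 was 1.22-fold lower over both genotypes, a log2 difference of -0.28 ± 0.0392 (95% interval -0.37 to -0.19, limma adjusted p = 0.00120), and this call was kept under all 16 other settings. The difference was -0.24 ± 0.0554 in wild type (adjusted p = 0.0301) and -0.32 ± 0.0554 in the knockout (adjusted p = 0.00832). In wild type the call was lost under 8 of 17 other settings. They were the deposited values (-0.20, adjusted p = 0.0965), median-centred values (0.140), no filter (0.0538), each of the 4 wild-type arrays left out (0.106 to 0.137) and the 2 arrays at the ends of the second component left out (0.191). In the knockout it was lost without knockout at CT6 B (0.0595), without knockout at CT18 A (0.0549) or B (0.0544), and without those 2 end arrays (0.0820).

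Rgs9, the R7 protein known for ending the light response in photoreceptors and for acting in the striatum, had log2 levels of 9.29 and 9.42 by day and 9.28 and 9.35 by night in the wild-type arrays. The knockout arrays read 9.35 and 9.46 by day and 9.18 and 9.17 by night. The wild-type pairs overlapped, and the knockout night pair was the lowest of the 4 groups. Over both genotypes the difference was -0.13 ± 0.0448 (95% interval -0.23 to -0.03, limma adjusted p = 0.0711), with -0.04 ± 0.0634 in wild type (adjusted p = 0.773) and -0.23 ± 0.0634 in the knockout (adjusted p = 0.0617). It passed over both genotypes with the filter at the 60th percentile (adjusted p = 0.0399) and with a variance trend (0.0461), and in the knockout under the same 2 settings (0.0303 and 0.0358). Rgs9 is also a gene of the striatum, and 2 of 6 tested striatal markers were lower at night, where 6.79% of all genes were. These were Pde10a, with a log2 difference of -0.75, and Foxp1, with -0.27. The other 4 did not pass, and the highest difference of the list was 0.05 (Penk). Pde10a was also among the genes most like Rgs16 (r = 0.9987). The summed level of the 7 measured striatal markers was 12.59 to 12.63 at CT6 and 12.47 to 12.56 at CT18, and their part in the result was not tested.

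The RZ genes are of interest beside Gpr176 because Gz is the G protein it couples to. Rgs20, the RZ protein first known for its action on Gz, had log2 levels of 7.47 and 7.35 by day and 7.05 and 7.03 by night in the wild-type arrays. The knockout arrays read 7.49 and 7.49 by day and 7.07 and 7.12 by night. The 4 day arrays lay above the 4 night arrays with no overlap. Rgs20 was 1.30-fold lower at night over both genotypes, a log2 difference of -0.38 ± 0.0407 (95% interval -0.48 to -0.29, limma adjusted p = 0.000239). The difference was -0.37 ± 0.0576 in wild type (adjusted p = 0.00527) and -0.40 ± 0.0576 in the knockout (adjusted p = 0.00326). Without the 2 arrays at the ends of the second component both genotype calls were lost, at adjusted p = 0.0636 and 0.0563, while that over both was kept (-0.37, adjusted p = 0.00716). With the filter at the 60th percentile Rgs20 was under the limit and was not tested.

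Rgs17, the other RZ protein, had log2 levels of 8.99 and 9.18 by day and 9.14 and 9.08 by night in the wild-type arrays. The knockout arrays read 8.95 and 9.13 by day and 9.02 and 8.99 by night. The groups overlapped, and the gap between the 2 wild-type day arrays, 0.191, was the largest of 36 such gaps over the 9 measured genes, whose median was 0.0524. The difference over both genotypes was -0.0041 ± 0.0556 (limma adjusted p = 0.972), with a 95% interval of -0.13 to 0.12. Differences of Rgs17 within that interval were not resolved by these arrays.

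Of the R12 genes, only Rgs14, whose protein joins an RGS domain to a GoLoco motif that holds Gi in its inactive form, was measured. The wild-type arrays stood at log2 levels of 6.82 and 6.91 by day (CT6) and 6.67 and 6.84 by night (CT18), and the knockout arrays at 6.76 and 6.85 by day and 6.84 and 6.85 by night. The groups overlapped. In a fit without the filter, chosen after seeing the data, the night difference was -0.11 in wild type (limma adjusted p = 0.525), 0.04 in the knockout (0.884) and -0.04 over both (0.777).

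**Figure D2:**
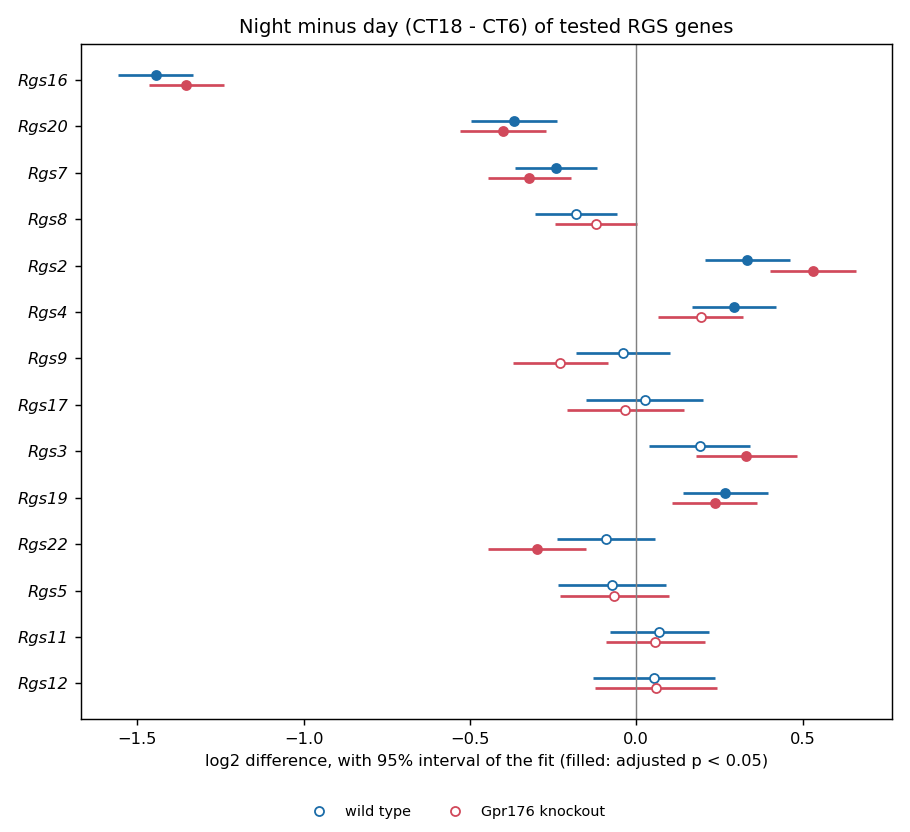
Log2 difference CT18 minus CT6 (horizontal axis) in wild type (blue) and in the knockout (red) for the 8 tested RGS genes and, in the lower rows, 6 other RGS genes; bars are 95% intervals of the limma fit, and filled points passed an adjusted p under 0.05. Rgs16 lies far to the left at -1.45 and -1.35, Rgs20 and Rgs7 lie left of 0 with filled points, and Rgs2 lies right of it at 0.33 and 0.53.

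The order of the 4 group means can be set against the gaps between replicate arrays. For Rgs16, Rgs20, Rgs7 and Rgs8 both CT6 groups ranked above both CT18 groups, and for Rgs2 and Rgs4 the CT18 groups ranked first. Rgs9, which did not pass between night and day, also had both CT6 groups above both CT18 groups. In such an order the 2 genotypes of a time are always neighbours. At CT6 these neighbours differed by 0.0162 for Rgs16, 0.0195 for Rgs8, 0.0226 for Rgs4 and 0.0370 for Rgs7. They differed by 0.0496 for Rgs9, 0.0591 for Rgs2 and 0.0847 for Rgs20. Each difference was less than that gene's largest gap between replicate arrays. At CT18 the neighbours differed by more than that gap for Rgs16 (0.0762 against 0.0352), Rgs2 (0.138 against 0.0905) and Rgs9 (0.139 against 0.122). By little, they also did so for Rgs4 (0.0772 against 0.0720) and Rgs7 (0.116 against 0.113).

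**Figure D3:**
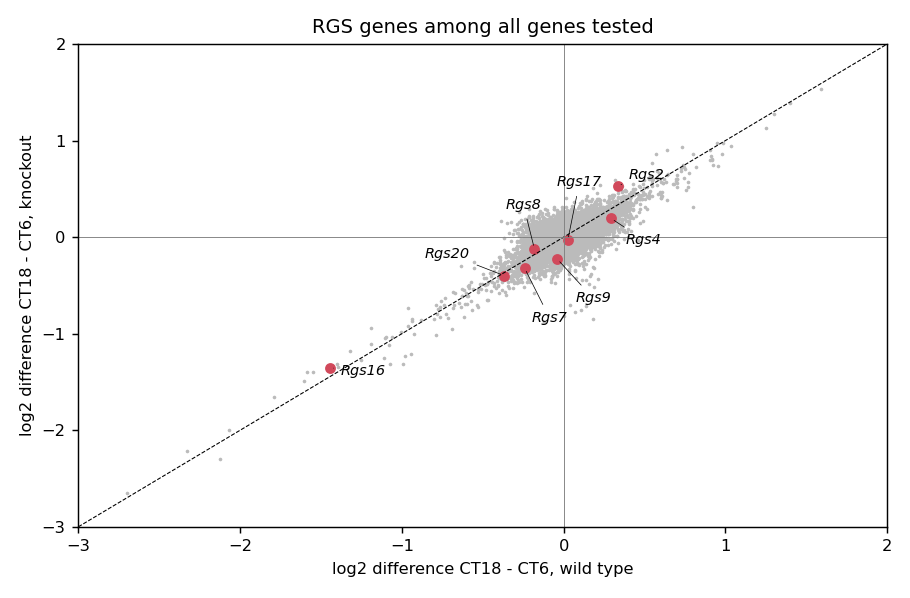
Log2 difference CT18 minus CT6 in wild type (horizontal axis) against the same in the knockout (vertical axis) for all 12452 genes tested (grey) and the 8 RGS genes (red); the dashed line marks equal values. Rgs16 lies at -1.45 and -1.35, near the line and far from the bulk of genes, Rgs2 lies above the line at 0.33 and 0.53, and Rgs9 below it at -0.04 and -0.23.

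The next comparison asked whether loss of Gpr176 changed the RGS genes. In limma, 0 of the 8 passed at CT6 (0.00803% of all genes did), 0 at CT18 (0.00803%) and 0 over both times (0.0241%, or 3 genes). The counts of RGS genes were also 0 under each of the other settings. At an unadjusted p under 0.05, 0 of the 8 passed at CT6 (528 of all 12452 genes did), 1 at CT18 (Rgs2, beside 1558 of all genes) and 0 over both times (1496 of all genes). These comparisons share their arrays with the comparisons of night and day. The differences at CT6 ran from -0.06 (Rgs2) to 0.08 (Rgs20), and those at CT18 from -0.14 (Rgs9) to 0.14 (Rgs2). Over both times the median of the 8 was -0.0085, beside -0.0101 over all genes tested.

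The 95% intervals of the fit, each for a single gene and time, show how precise these differences were. They are not adjusted for the number of genes. For Rgs16 the knockout difference was -0.02 (-0.13 to 0.10) at CT6 and 0.08 (-0.04 to 0.19) at CT18. For Rgs20 it was 0.08 (-0.04 to 0.21) at CT6 and 0.05 (-0.08 to 0.18) at CT18. For Rgs17, the least precise, it was -0.05 (-0.23 to 0.13) and -0.11 (-0.29 to 0.07). Over the 8 genes no interval at either time reached beyond -0.29 or 0.27.

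At CT18 the 2 knockout arrays lay wholly above or below the 2 wild-type arrays for 8 of 8 genes, where this held for 45.8% of all genes. The A arrays of both groups are the 2 arrays at the ends of the second component. Rgs2, Rgs8, Rgs16 and Rgs20 were on the higher side, and Rgs4, Rgs7, Rgs9 and Rgs17 on the lower side. The median over the 8 at CT18, -0.02, was that over all genes, -0.02. At CT6 the groups did not overlap for 2 of 8 genes, Rgs2 and Rgs20, against 32.8% of all genes. Over both times they overlapped for all 8, where 4.22% of all genes did not.

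For Rgs2 at CT18 the knockout arrays stood at 9.18 and 9.09 and the wild-type arrays at 8.97 and 9.02. The difference was 0.14 ± 0.0573 (95% interval 0.01 to 0.27), with an unadjusted p of 0.0383 and a limma adjusted p of 0.382. Array A of each group lies at an end of the second component, and the B arrays read 9.09 (knockout) and 9.02 (wild type). Over all settings the Rgs2 difference ran from 0.06 to 0.18. Rgs9 at CT18 differed by -0.14 ± 0.0634 (-0.28 to 0.00292, adjusted p = 0.407) and Rgs7 by -0.12 ± 0.0554 (-0.24 to 0.00765, adjusted p = 0.419). None of the 3 passed.

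Whether the night change itself differed between genotypes was tested as an interaction. It passed in limma for 0 of the 8 RGS genes and for 0 of all 12452 genes (0%), and 1 of the 8, Rgs2, had an unadjusted p under 0.05, as did 605 of all genes. The night change of Rgs2 was larger in the knockout by 0.20 ± 0.0811 (95% interval 0.02 to 0.38, unadjusted p = 0.0366, adjusted p = 0.944). Over all settings this estimate ran from 0.12 to 0.24. The night change of Rgs9 differed by -0.19 ± 0.0897 (-0.39 to 0.01, adjusted p = 0.944). For Rgs16 the interaction was 0.09 ± 0.0716 (-0.07 to 0.25, adjusted p = 0.944) beside a night change of -1.45 in wild type. Rgs4 passed between night and day in wild type and not in the knockout, but its interaction did not pass, at -0.10 ± 0.0799 (-0.28 to 0.08, adjusted p = 0.946).

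**Figure D4:**
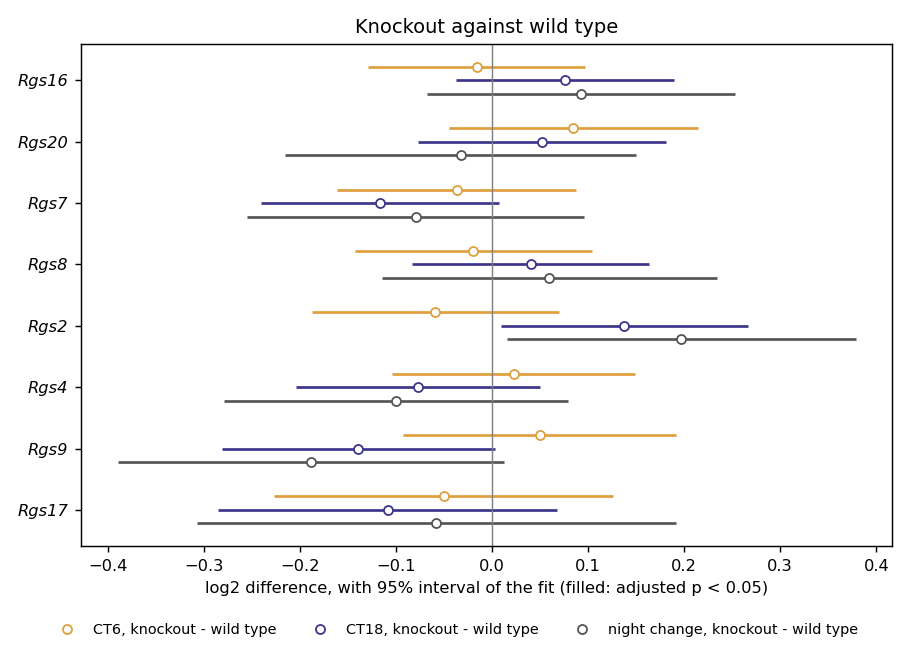
Log2 difference knockout minus wild type (horizontal axis) for each tested RGS gene at CT6 and at CT18, and the difference of the night change between genotypes, with the 95% interval of the limma fit; open points did not pass an adjusted p under 0.05. All points are open and lie between -0.19 and 0.20, and the Rgs2 intervals at CT18 and for the night change lie just right of 0.

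Beside these genes the array measured 11 other RGS genes, 6 of which passed the filter. Over both genotypes 2 were higher and 1 lower at night, beside 10.0% and 6.79% of all genes. Rgs19, an RZ protein that acts on Gi and Gz, rose by 0.25 ± 0.0402 (limma adjusted p = 0.00262), a call kept under all 16 other settings. The difference was 0.27 in wild type (adjusted p = 0.0214, lost under 5 of 17 other settings) and 0.24 in the knockout (0.0372, lost under 12 of 17), and without the 2 end arrays neither passed (0.218 and 0.163). So within the RZ subfamily Rgs20 was lower at night, Rgs19 was higher and Rgs17 did not pass. Rgs3, a larger R4 protein, rose by 0.26 ± 0.0481 (adjusted p = 0.00563), but a dimmer probe set of the gene differed by 0.0750. Rgs22 fell by 0.19 ± 0.0463 (adjusted p = 0.0190), a call lost without wild type at CT6 B, wild type at CT18 A, knockout at CT6 B or knockout at CT18 A, and without the 2 end arrays together. Rgs5, Rgs11 and Rgs12 did not pass, and 0 of the 6 passed between genotypes. Rgs1, Rgs6, Rgs13, Rgs18 and Rgs21 were under the filter. Of these, Rgs13, Rgs1, Rgs21 and Rgs18 follow Rgs2 in that order on chromosome 1, so that Rgs2 was the only gene of this run that passed the filter.

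The partners and substrates of RGS proteins were counted in the same fit. Among R7 partners, 2 of 4 tested genes passed over both genotypes, beside 16.8% of all genes. Both were higher at night (10.0% of all genes), while Rgs7 was lower. Gnb5, the beta subunit that stabilises R7 proteins, rose by 0.18 ± 0.0467 (limma adjusted p = 0.0299, lost under 8 of 16 other settings). Rgs7bp, the palmitoylated anchor that brings R7 complexes to the membrane, rose by 0.21 ± 0.0492 (adjusted p = 0.0162, lost under 5 of 16). Gpr158, a receptor that binds Rgs7, differed by 0.07 ± 0.0379 (adjusted p = 0.267).

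Of 10 tested G alpha genes 1 was higher and 1 lower at night, beside 10.0% and 6.79% of all genes. Gna13 rose by 0.16 ± 0.0480 (limma adjusted p = 0.0477) and Gnal, the olfactory and striatal relative of Gs, fell by 0.15 ± 0.0461 (adjusted p = 0.0480), and both calls were lost under most of the 16 other settings (11 and 12). Gnaz, which encodes the alpha subunit of Gz, differed by 0.13 ± 0.0496 between night and day (adjusted p = 0.108) and by 0.04 between knockout and wild type (adjusted p = 0.784). Among the other proteins with an RGS domain or a GoLoco motif, 3 of 13 tested genes were higher and 0 lower at night. The shares over all genes were again 10.0% and 6.79%. Grk5, a kinase that turns off active receptors, rose by 0.32 ± 0.0534 (adjusted p = 0.00305), and this call was kept under all 15 settings that gave it. Grk3, a related kinase, rose by 0.19 ± 0.0438 (adjusted p = 0.0163, lost under 5 settings), and Snx25 rose by 0.17 ± 0.0445 (adjusted p = 0.0312, lost under 8). In these 3 lists 0 genes passed between genotypes. The median night differences were 0.12 for the R7 partners, 0.01 for the G alpha genes and 0.03 for the last list, beside 0.01 over all genes.

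The genes whose levels most resembled those of each called RGS gene were ranked by Pearson correlation over the 8 arrays, among 11712 genes, as a description. The 8 arrays share 4 groups, so that a shared difference between day and night gives a high r. For Rgs16 the 5 most alike were Chrna3, a nicotinic receptor subunit (r = 0.9991), Rasl11b (0.9989), Pde10a, a phosphodiesterase of cAMP and cGMP (0.9987), Fbxl21, an F-box protein that acts on cryptochromes (0.9978), and Sik1, a kinase of the cAMP response (0.9977). Their log2 differences between night and day were -1.36, -2.27, -0.75, -1.37 and -1.05, all called, and 155 genes reached r = 0.95.

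For Rgs20 the 5 were Kcnip4 (0.992), Ldlrad4 (0.990), Fndc9 (0.984), Camk1g (0.984) and Mrap2 (0.982), and 102 genes reached 0.95. For Rgs7 they were Dclk1, Fbxo28, Map3k19, Lrp1b and Gda (0.992 to 0.987, 107 genes). For Rgs8 they were Megf10, Erlec1, Stk35, Vgf and Pde4d (0.983 to 0.964), and only 15 genes reached 0.95. Among genes that were higher at night, Rgs2 was most like Znfx1, Armcx1, Hs3st1, Slc41a3 and Slc6a3 (0.989 to 0.983, 75 genes). Rgs4 was most like Cyp2j9, Hip1, Kdm7a, Srgap3 and Rbpms2 (0.991 to 0.982, 114 genes). No gene stood in more than 1 of these lists of 5.

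Markers of other cells differed between the times in places, and their part in the RGS results was not tested. Over both genotypes 3 of 7 tested ependymal markers were lower at night (Ccdc153, Hydin and Rarres2, log2 differences of -0.27 to -0.21), where 6.79% of all genes were. The other 4 did not pass, and the highest difference of the list was 0.12 (Foxj1). The summed level of the list was 11.78 to 11.97 at CT6 and 11.69 to 11.78 at CT18. Of 10 endothelial and mural markers 3 were lower (Acta2, Pdgfrb and Tek, -0.43 to -0.20). The other 7 did not pass, and the highest difference of that list was 0.08 (Cldn5). Its summed level was 11.96 to 12.14 at CT6 against 11.80 to 12.04 at CT18. Of 11 oligodendrocyte markers 2 were lower (Opalin, -0.66, and Ugt8a, -0.45), of 10 astrocyte markers 2 were higher and 1 lower, and of 8 microglial and 10 leptomeningeal markers 0 passed. Over all genes 10.0% were higher and 6.79% lower. The summed leptomeningeal level was 12.87 in wild type at CT18 A and 12.77 in knockout at CT6 A, and 11.83 to 12.55 in the other arrays. No marker of these lists passed between genotypes.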

How the data were processed

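The authors deposited 1 table of log2 values for 28853 probe sets on 8 Affymetrix whole-transcript arrays. Per the labels' protocols, RNA was column purified, amplified with the Ambion WT Expression kit and labelled with biotin. The background, summarisation and normalization methods were not stated there, and the log base was taken from the range of the values (4.74 to 14.3).

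Because the lower quartiles differed by up to 0.139 between arrays, the columns were quantile normalized, a step that can mask a shift common to most genes. Genes were named from the platform annotation (21789 probe sets with 1 symbol, 1621 with several, 5443 unnamed here). Genes with a mean below the 40th percentile (6.82) were left out. A model with 4 group means was fitted with limma 3.58.1 in R 4.3.3, with Benjamini-Hochberg adjustment over all genes tested. Values after ± are standard errors of the fit, which had 4 residual degrees of freedom. The fit was tested on simulated data with independent noise, which lacks variation shared between genes such as the second component. That test does not check the calls made here. The number of arrays, 2 a group, limits the precision.

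The genes and lists were chosen with earlier results of these data known. Genes named are all 10 RGS genes, other RGS genes above the filter, listed partners that passed (Gpr158 and Gnaz were added after their values were seen), and the 5 genes most like each called RGS gene, without provisional symbols. Promoter sequences came from RefSeq (GRCm38.p6). Alternatives covered normalization, filter, probe sets, variance model, groups fitted, a replicate block and each array left out. Leaving out 2 arrays together, and fitting Rgs14 without the filter, were added after seeing the data.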

Additional observations from a re-analysis of the deposited data

How the results depend on the processing

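The counts of RGS genes that passed between night and day over both genotypes stayed between 5 and 7 under all settings, and those between genotypes and for the interaction stayed at 0. In wild type the count of 5 ranged from 2 to 5 when single arrays were left out, with 2 without wild type at CT6 B and 3 without either wild-type array at CT18. In the knockout the count of 4 ranged from 3 to 4 when single arrays were left out, and was 5 with the filter at the 60th percentile (Rgs4 and Rgs9 passed, Rgs20 was not tested) and 5 with a variance trend (Rgs9 passed). Leaving out wild type at CT18 A and knockout at CT18 A together, an alternative chosen after seeing the data, gave 1 in wild type (Rgs16) and 2 in the knockout (Rgs2 and Rgs16). Such fits have fewer arrays, and a group left with 1 array is assumed to vary like the others. The number of all genes that passed between night and day also fell in each fit with arrays left out. In the knockout, 12.7% of all genes passed with the filter at the 60th percentile and 8.87% with a variance trend. Of 15 differences of single RGS genes called in the main fit, 0 changed sign under any setting, and of 37 never called, 15 did. With those called only under other settings, 19 were called at least once. Called differences lie far from 0 by selection, and the filters and variance trend left the difference itself unchanged, so the contrast was partly fixed in advance.

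With the letters A and B as a replicate block the counts of RGS genes were 5 in wild type, 4 in the knockout and 6 over both genotypes, and 0 in the comparisons between genotypes. The main fit did not treat the letters as pairs. The differences of A and B correlated between groups at -0.222 to 0.257, which does not settle whether the letters pair the samples. Among the other RGS genes, the knockout call of Rgs19 did not pass with this block (adjusted p = 0.0560).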
